A study of Caenorhabditis elegans with 2 samples.

Results

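The ubiquitin and proteasome genes of Caenorhabditis elegans were examined in a chromatin immunoprecipitation sequencing (ChIP-seq) experiment on ATFS-1, a bZIP factor that switches on genes of the mitochondrial unfolded protein response. Members were the peaks whose assigned gene name began with ubc-, uba-, ubq-, ubl-, pas-, pbs-, rpt- or rpn- and went on with a number. The rule found 12 of the 1005 peaks in the deposited list, each with a different member gene. They were 3 peaks at ubiquitin or ubiquitin-like genes (ubq-1, ubq-2 and ubl-1), 6 at conjugation enzymes (ubc-3, ubc-6, ubc-7, ubc-8, ubc-9 and ubc-12), 1 at the proteasome core particle (pbs-5) and 2 at its regulatory particle (rpt-6 and rpn-9). The rule used gene names alone, on peaks that had all passed the peak caller. It was chosen with earlier results of these data known.

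The study asked where ATFS-1 sits in the genome during mitochondrial stress. The first group was 1 library from wild-type worms on spg-7(RNAi), precipitated with an ATFS-1 antibody, and the second was 1 library from wild-type worms on spg-7(RNAi), taken through without antibody. All animals thus carried the knockdown of spg-7, which encodes a mitochondrial protease, and no unstressed worms were among the samples used here. Worms were harvested as L4 larvae after about 48 h and whole-worm lysates were used, so the tissue of a signal is not known. After duplicate removal the antibody library held 10992796 tags and the no-antibody library 10583049. With 1 library a group no value has a replicate error, no test between the groups was run, and the file header places the libraries in different sequencing projects, which cannot be told apart from the antibody.

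Ubiquitin is a small protein that cells attach to other proteins as a tag. An activating enzyme (E1) loads it, a conjugating enzyme (E2) carries it, and a ligase (E3) joins it to the substrate. Proteins with ubiquitin chains are unfolded and fed by the regulatory particle of the proteasome into the barrel-shaped core particle, where they are cut into peptides. SUMO and NEDD8 are related modifiers with E1 and E2 enzymes of their own.

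Ubiquitin and conjugation genes were named at peaks in larger shares than proteasome genes. Of the 60 genes of the RefSeq gene table with such a symbol, 11 (18.3%) were named at a peak, against 4.53% of all 19971 nuclear protein-coding genes. By role the counts were 2 of 3 ubiquitin and ubiquitin-like genes, 6 of 24 conjugation enzymes (25%), 1 of 14 core particle genes (7.14%) and 2 of 19 regulatory particle genes (10.5%). The 12th name, ubl-1, is an older one that is not in the gene table, and with it matched by hand to its gene the count was 12. Whether the roles differ was not tested. Core and regulatory particle together had 3 of 33 genes at a peak (9.09%).

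**Figure D1:**
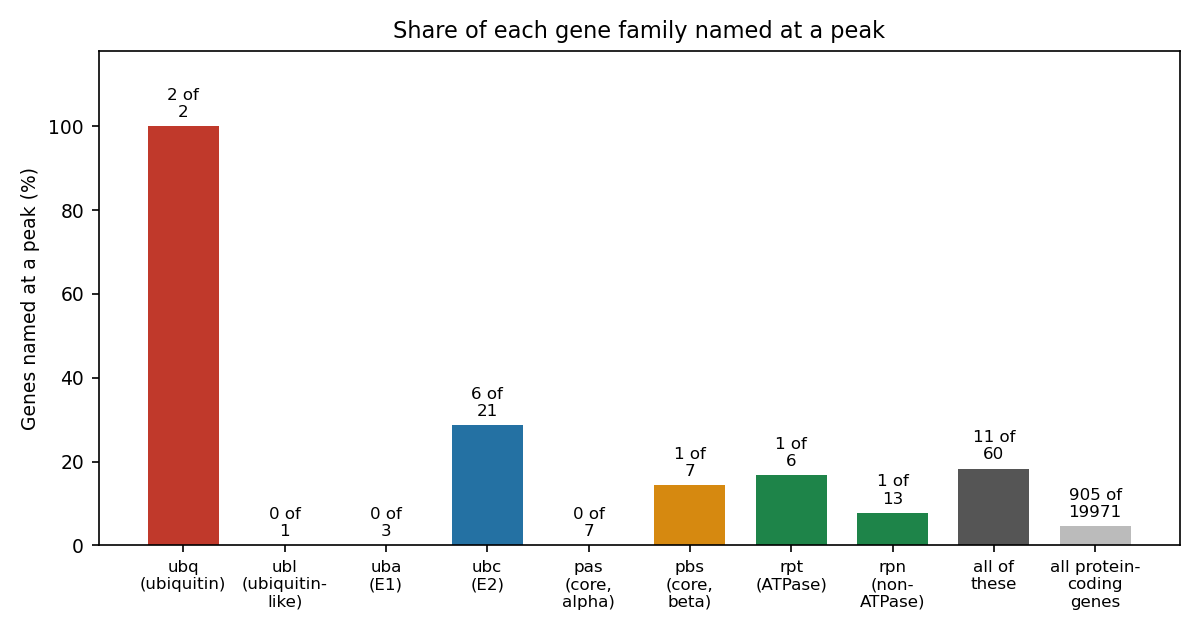
Bars give the percentage of genes named at a peak (vertical axis, from 0) for each gene name prefix, for all 60 genes of these families and for all 19971 nuclear protein-coding genes of the table, with the counts printed above. Both ubq genes and 6 of 21 ubc genes were named at a peak, against 0 of 3 uba and 0 of 7 pas genes. The ubl-1 peak is not counted, because that name is not in the table.

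The 12 peaks had a median fold near that of the list but lacked its higher folds, a difference that was not tested. Fold enrichment is the antibody signal over the level that the caller expected from the control, and all tag counts, folds, scores and false discovery rates here are the authors' values. The member folds ran from 2.51 to 3.74 with a median of 3.22, against 2.0 to 13.08 with a median of 3.26 over the whole list. Of the 12 peaks 6 lay at or above the list's median, and 0 reached 4-fold, against 26.4% of all peaks. The best-placed member by fold, ubc-6, ranked 322nd of 1005. A false discovery rate of 5% or less was held by 1 of the 12, ubq-1 (3.33%), against 3.18% of the list. Next by that rate came rpt-6 at 5.53% and ubc-12 at 5.99%.

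**Figure D2:**
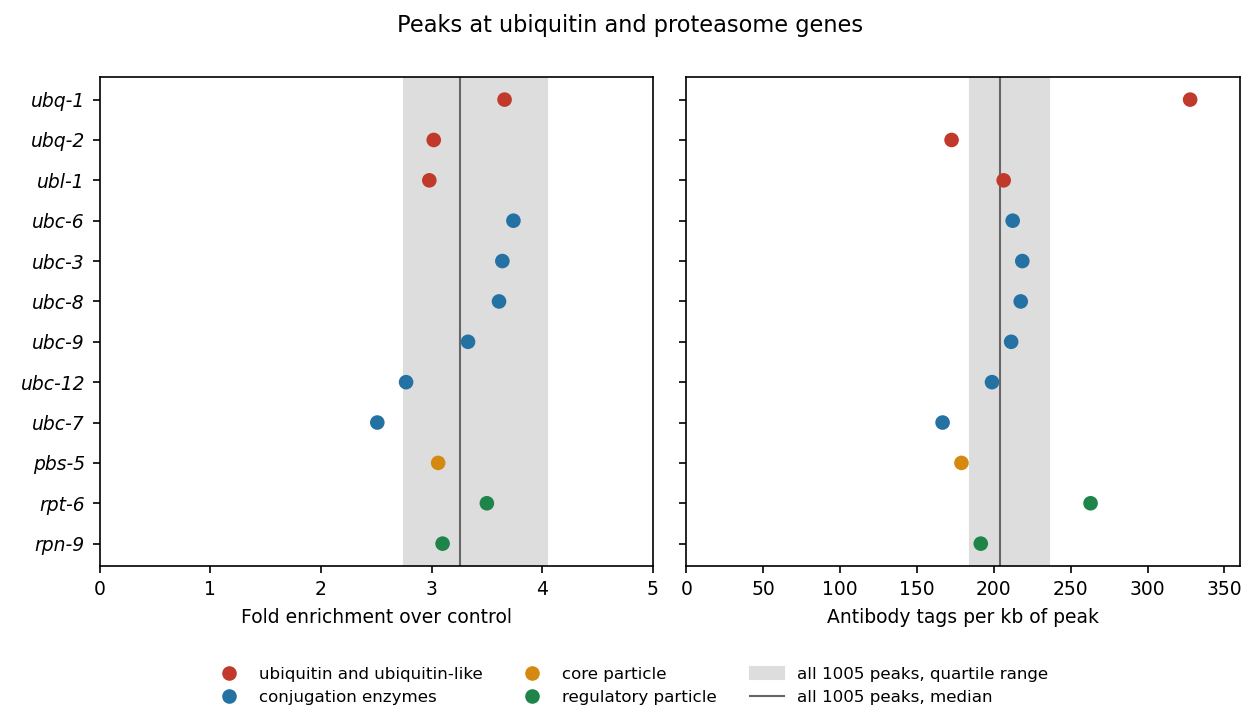
Points give the fold enrichment (left) and the antibody tags per kb of peak (right) of the 12 member peaks, 1 row a gene, coloured by role. The grey band is the quartile range and the line the median of all 1005 peaks. The folds of 11 members lie inside the band, with ubc-7 (2.51) below it, while for tag density ubq-1 (328 tags per kb) and rpt-6 (263) lie above the band and pbs-5 (179), ubq-2 (173) and ubc-7 (167) below it.

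The polyubiquitin gene ubq-1 had by far the most tags of the 12. ubq-1 encodes ubiquitin units in tandem and is a main source of the cell's ubiquitin. Its peak (chromosome III, 5937584 to 5944479; coordinates are those of the deposited list, whose build the labels and header do not name) held 2260 tags over 6896 bp, with a Poisson 95% interval of 2168 to 2355 for counting error alone. It ranked 8th of 1005 by tags, 8th by length and 29th by score, the score being minus 10 times the log10 of the caller's p-value (1663.46 here). Its fold of 3.66 ranked only 349th. Per kb it held 328 tags, against a list median of 204. Tags per kb divided by fold came to 89.5, the 6th highest in the list, against a list median of 62.5. Control tags per peak are not given and this quotient also varies with peak shape, so it does not measure the control level. The ubq-1 peak was thus broad and tag-rich with a middling fold, and it carried 2260 of the 6621 tags of all 12 peaks.

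The other ubiquitin peaks were weaker. ubq-2 encodes ubiquitin fused to a ribosomal protein of the large subunit. Its peak (III, 12978364 to 12979789) held 246 tags over 1426 bp at 3.02-fold, with a score of 65.74, which 15.5% of peaks fell below. It was also assigned to ZK1010.3, the frg-1 gene, with no protein-coding gene between the pair in the table. ubl-1 encodes a ubiquitin-like protein fused to a ribosomal protein of the small subunit. Its peak (III, 3067595 to 3069619) held 418 tags over 2025 bp at 2.98-fold, and it was the only name at that peak. Ubiquitin units are near-identical in protein sequence within ubq-1 and between ubq-1 and ubq-2, and their DNA sequences were not compared here. How tags with several matches were placed is not stated, so tags at these genes are uncertain. ubl-5, a ubiquitin-like gene known from the mitochondrial unfolded protein response of worms, was not named at a peak.

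Conjugating enzymes made up the largest group, 6 of the 21 ubc genes (28.6%), with folds of 2.51 to 3.74 and a median of 3.47. ubc-6 and ubc-7 share their names with yeast Ubc6 and Ubc7, which act with the endoplasmic reticulum. A shared name does not show a shared role, and whether these worm genes are their counterparts was not examined. ubc-6 had the highest fold of all 12 members, 3.74, with 263 tags over 1239 bp (II, 7478349 to 7479587), at a peak shared with the adjacent gene aka-1. ubc-7 had the lowest, 2.51, with 214 tags over 1284 bp (III, 9630525 to 9631808). Its score of 50.48 lay just above the cutoff of 50 and ranked 1000th of 1005, so this peak was among the faintest listed.

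ubc-3 is the worm counterpart of yeast Cdc34, the conjugating enzyme of the cullin-based SCF ligases. Its peak (I, 1697493 to 1700988) was broad, with 764 tags over 3496 bp at 3.64-fold. Its summit lay at 16.4% of the peak's length, the most off-centre of the 12. ubc-12, the conjugating enzyme for NEDD8, which is attached to cullins, had a peak of like breadth (I, 11910218 to 11913748) with 702 tags over 3531 bp, but at 2.77-fold. Those peaks ranked 126th and 153rd by tags, against 357th and 740th by fold.

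ubc-9, the conjugating enzyme for SUMO, had 311 tags over 1472 bp at 3.33-fold (IV, 4650081 to 4651552). ubc-8 had 256 tags over 1177 bp at 3.61-fold (IV, 2708104 to 2709280), the shortest of the 12 peaks. Conjugation enzymes for ubiquitin, SUMO and NEDD8 were therefore all in the list, but none of their E1 enzymes was. rfl-1 and ula-1, which form the NEDD8 E1, and the 3 uba genes of the table, uba-1 for ubiquitin, uba-2 for SUMO and uba-5 for the modifier UFM1, were not named at a peak. Of all nuclear protein-coding genes 4.53% were named at a peak, so finding none among so few E1 genes is not unusual. E1 and E2 genes were not compared by a test.

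**Figure D3:**
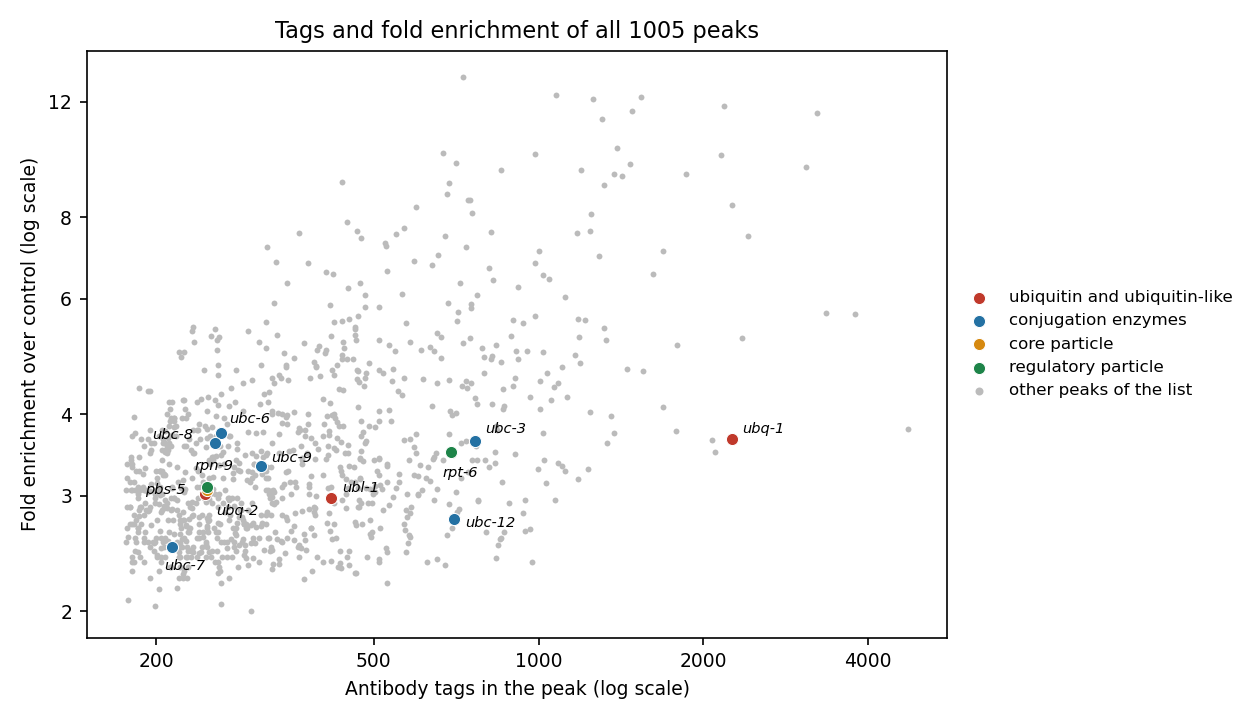
Each point is a peak of the list, placed by its antibody tags (horizontal, log scale) and fold enrichment (vertical, log scale); the 12 members are coloured by role and named, and grey points are the other peaks. The members lie between 2.51-fold and 3.74-fold, with ubq-1 far to the right at 2260 tags and ubq-2, pbs-5 and rpn-9 almost on 1 spot at 246, 248 and 248 tags.

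In the core particle only pbs-5 was named at a peak. pbs-5 encodes a beta subunit of the inner rings, the one with chymotrypsin-like activity. Its peak (I, 14720686 to 14722071) held 248 tags over 1386 bp at 3.06-fold, with a score of 78.24, which 24% of peaks fell below. The other 6 pbs genes and all 7 pas genes, which encode the alpha subunits of the outer rings, had none in the list.

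In the regulatory particle the peaks were at rpt-6 and rpn-9. rpt-6 encodes an ATPase of the ring that unfolds substrates. Its peak (III, 12366835 to 12369462) held 691 tags over 2628 bp at 3.50-fold, with 263 tags per kb, second to ubq-1 among the 12. It was shared with his-72, the adjacent gene in the table, which encodes a variant of histone H3, and which gene the signal belongs to was not tested. rpn-9 encodes a non-ATPase subunit of the lid. Its peak (II, 11238345 to 11239639) held 248 tags over 1295 bp at 3.10-fold and was shared with the adjacent T06D8.9. So both regulatory particle peaks carried a second gene name, and pbs-5 was the only proteasome gene alone at its peak. The other 5 rpt and 12 rpn genes, among them rpn-10, a ubiquitin receptor, and rpn-11, the lid's deubiquitinase, were not in the list.

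By the counting intervals of their tags, ubq-1 and ubl-1 (379 to 460 tags) overlapped no other member, with ubq-1 above all others. The intervals of ubc-3, ubc-12 and rpt-6 overlapped one another and together spanned 640 to 820 tags. These counts are per peak and were not scaled to peak length. Among the other 7 members the intervals ran from 186 to 245 tags for ubc-7 up to 277 to 348 tags for ubc-9, and those of ubc-7 and ubc-9 did not overlap. Folds have no interval, because control tags per peak are not given. The 12 peaks together held 6621 tags, 0.0602% of the filtered antibody library (exact 95% interval 0.0588 to 0.0617%) and 1.45% of the tags in all peaks. Without ubq-1 they held 4361.

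Position gave further differences among the members. Chromosome III carried 5 of the 12 peaks, with 13 of the 60 family genes and 187 of the 1005 peaks of the list. The ubl-1 peak is among those 5, but ubl-1 is not among the 13 genes, because that name is not in the gene table. Chromosome I carried 3 (18 family genes, 179 listed peaks), II carried 2 (11 and 139) and IV carried 2 (8 and 165). Chromosomes V (6 and 161) and X (4 and 174) carried 0. Each of 4 peaks (33.3%) carried a second name, against 9.95% of the list. The rule read these names, so a peak with several names had more chances to be a member. The 74 listed peaks without a name had no such chance, so these shares are not on an equal footing. The gap to the next listed peak had a median of 9462 bp, against 27036 bp over the list. The closest neighbours were at ubc-8, 588 bp from a peak named Y94H6A.10, and at rpn-9, 1433 bp from the peak of cchl-1, a gene for cytochrome c heme lyase. ubl-1 stood most alone, 106262 bp from the next peak. Of the 12 peaks 5 were 2000 bp or longer (41.7%), against 31.8% of the list. These differences were not tested.

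Other genes of the pathway, taken from a list of 115 of which 111 were in the gene table, were named at peaks in 15 cases (13.5%), against 4.53% of all nuclear protein-coding genes. By role these were 4 of 45 ligases and adaptors, 1 of 21 deubiquitinases, 0 of 6 genes of the COP9 signalosome, 4 of 14 segregase and shuttle genes, 4 of 20 genes for ubiquitin-like modifiers and 2 of 5 genes of assembly or regulation. The share of deubiquitinases, 4.76%, was near that of all genes. The median fold of the 15 was 3.77, against 3.26 over the list. Of the 15, 6 reached 4-fold, against 26.4% of all peaks, and 0 lay at or under a false discovery rate of 5%, against 3.18%. None of these differences was tested. The list was chosen with earlier results of these data known, so its shares cannot be told apart from that choice.

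The folds of the 4 ligases, 4.17 to 8.12, all lay above the highest fold of the 12 members, 3.74. chn-1, the worm CHIP, which works with chaperones, had 8.12-fold enrichment and 755 tags (I, 6179872 to 6182438), rank 29 of 1005. eel-1 and wwp-1, both HECT-type ligases, had 4.69-fold with 542 tags and 4.21-fold with 1054 tags. brc-1, the BRCA1 counterpart, had 4.17-fold with only 211 tags.

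Among segregase and shuttle genes, cdc-48.1, the AAA ATPase that pulls ubiquitinated proteins out of complexes, had 3.77-fold with 414 tags. The ubiquilin gene ubql-1, listed as F15C11.2 at a peak shared with pdi-3, had 3.99-fold with 420 tags. Of the UBX-domain genes, which encode CDC-48 cofactors, ubxn-3 had 2.46-fold with 572 tags and ubxn-2 2.34-fold with 229. The deubiquitinase gene was otub-2, listed as Y50C1A.1 at a peak shared with R119.5 (3.24-fold, 207 tags).

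Genes for ubiquitin-like modifiers were ulp-4, a SUMO protease (3.17-fold, 293 tags), and 3 of autophagy. Those 3 were lgg-1 (4.02-fold, 708 tags), lgg-2 (2.61-fold, 679 tags) and atg-7, the E1-like enzyme (3.75-fold, 477 tags). The atg-7 peak was shared with let-70, a gene for a conjugating enzyme. Neither smo-1, the SUMO gene, nor ned-8, the NEDD8 gene, was named at a peak. aip-1, a stress-induced gene of the AIRAP family that acts on the proteasome, had 2.96-fold with 438 tags. skn-1, whose product drives proteasome genes when the proteasome is impaired in worms, had 6.69-fold with 811 tags (IV, 5655574 to 5658133). Its false discovery rate was 10.42%, although its score of 1142.48 lay above the list's upper quartile of 315.46. By fold the skn-1 peak ranked 55th in the list.

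**Figure D4:**
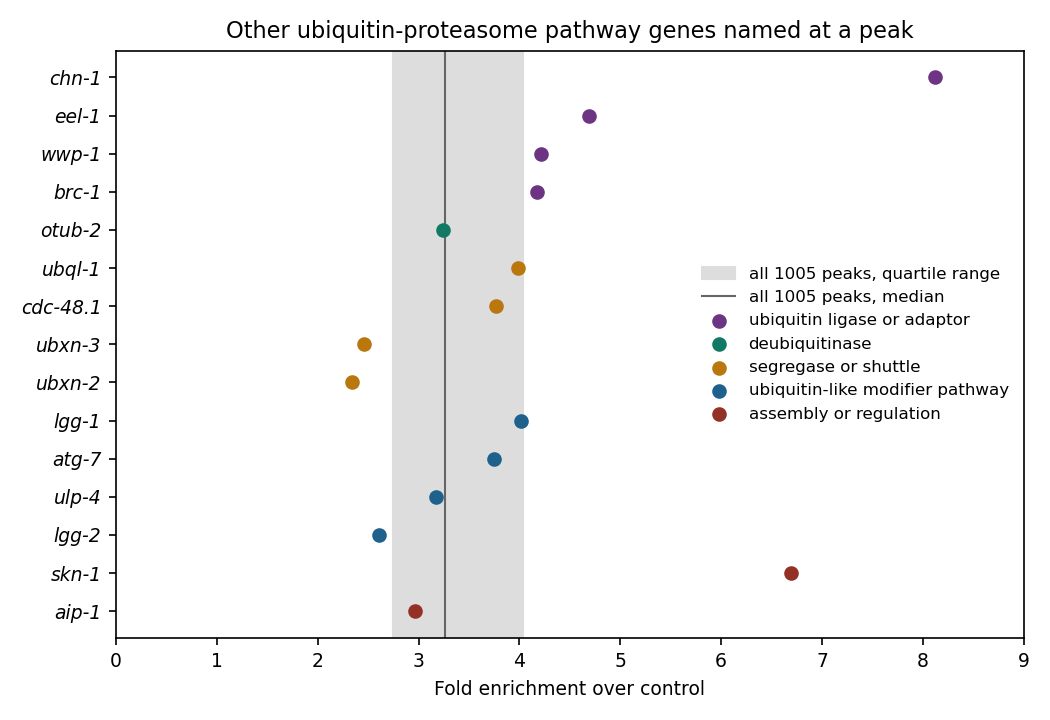
Points give the fold enrichment of the 15 other pathway genes named at a peak, 1 row a gene, grouped and coloured by role; the grey band is the quartile range and the line the median of all 1005 peaks. The ligases (4.17-fold to 8.12-fold) and skn-1 (6.69-fold) lie right of the band, and ubxn-2 (2.34), ubxn-3 (2.46) and lgg-2 (2.61) left of it.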

How the data were processed

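Peaks were called by the authors with MACS 1.4.2 on the antibody library against the no-antibody library, per the file headers, with a p cutoff of 1e-05, at most 1 tag per position and the larger library scaled towards the smaller. Per the submitters' processing notes, BWA 0.7.5 and Picard were also used. The genome build and the way gene names were assigned are not given in the sources used here. The deposited values are tag counts per peak, fold enrichment (a ratio), a score, a false discovery rate in percent, and positions and lengths in bp. The score's heading had been lost, and it was read from its place in the caller's columns.

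Names were split at "/" and matched, on the peak's chromosome, to symbols or locus names of the RefSeq table of assembly WBcel235, used for names and neighbours (930 of 1033 matched, and 11 of the 12 members). Ranks, medians, tags per kb and exact intervals (95%, counting error only) were computed with Python 3.11.15, pandas 2.3.3 and scipy 1.17.1. Intervals take tags as independent. Every member and every listed pathway gene at a peak was named. The members and lists were chosen with earlier results of these data known. A planned search of promoter motifs was not run.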

Additional observations from a re-analysis of the deposited data

How the results depend on the processing

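No paired analysis was possible because a single library stands for each condition, so none could be left out either. Of the 11 family genes at peaks, 1 was left when the list was limited to a false discovery rate of at most 5% (32 peaks), 6 when it was limited to scores from the median up (503 peaks), 6 when limited to folds from the median up (504 peaks) and 7 with single-name peaks (831). Under the same settings, in that order, ubiquitin and ubiquitin-like genes gave 1, 1, 1 and 1 in place of 2, and regulatory particle genes 0, 1, 1 and 0 in place of 2. Core particle genes gave 0 in place of 1 under the first 3. Conjugation enzymes gave 0, 4, 4 and 5 in place of 6, in the same order of settings. Other pathway genes gave 0, 11, 9 and 12 in place of 15. The median fold of members was 3.66 at the false discovery rate of 5%, from ubq-1 alone. Fewer peaks remain under these settings by construction. Matching by symbols only and matching ubl-1 by hand were chosen after seeing the data. The name-matching settings moved no count by more than 1.5 times. Symbols only gave 13 other pathway genes in place of 15. The hand match gave 12 family genes in place of 11, and 3 ubiquitin and ubiquitin-like genes in place of 2. The other name-matching settings changed no count, but the main matching already used locus names and the peak's chromosome, so they tested little. The fewest tags in a listed peak were 176, and regions that missed the caller's cutoff are not in the list. A gene not named in the list may still lie at a peak that has no name (74 peaks), a name matched to no gene or the name of a neighbour.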

Other observations

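Several relatives of these genes fell outside the rule and were looked up after the list had been seen. let-70, an essential conjugating enzyme with the older name ubc-2, was named with atg-7 at a peak of 3.75-fold and 477 tags (chromosome IV, 11081424 to 11083530). Of the 3 uev genes, which encode conjugating enzyme variants without the catalytic cysteine, 0 were named at a peak.

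The large families of substrate adaptors were mostly missing from the list. Of 322 fbxa, fbxb and fbxc genes, which encode F-box proteins of SCF ligases, 2 were named at a peak (0.621%), against 4.53% of all nuclear protein-coding genes. They were fbxb-58 (5.29-fold, 333 tags) and fbxa-108 (2.29-fold, 463 tags). Of 20 skr genes, for SKP1-related linkers, and 72 bath and math genes, for adaptors of cullin ligases and their relatives, 0 matched. The list also held the names fbox-72, with gei-7 at a peak of 4.1-fold and 1686 tags, and bath-43, at 2.98-fold and 185 tags, which matched no gene of the table.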
